A study of Mus musculus with 30 samples.

Results

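Regulatory T cells (Treg) and effector T cells (Teff) taken from the inflamed pancreas of mice treated with an antibody against ICOS were compared on Affymetrix MG-U74Av2 arrays, with 3 arrays for each cell type, 6 of the 30 arrays in the series. The members were chosen by the array titles alone. Every array holds polyA RNA from CD4+ T cells of NOD mice, an inbred strain that develops autoimmune diabetes, carrying the BDC2.5 T cell receptor transgene, so that most CD4+ T cells recognise 1 islet antigen. Mice of both anti-ICOS groups were 26 days old. Treg cells were sorted as CD4+CD25+ and Teff cells as CD4+CD25-. The sort was by CD25 protein, so a difference in its gene, Il2ra, is not an independent result. No label tells whether the replicates came from separate or pooled animals, so p-values measure a spread between arrays only. In most fits that spread also takes in arrays of IgG-treated mice. Arrays of mice given control IgG served as background: 2 Treg arrays from the same submission (ages of 4 weeks and 26 days), sorted as CD4+CD25+CD69-, and an earlier group of 3 Treg and 5 Teff arrays, whose Teff gate was CD4+CD25lo/- with either CD69 state. Arrays of CD4+CD25+ and CD4+CD25- cells from mesenteric and peripheral lymph nodes of mice aged 4 weeks served for a scale only. Their titles name no treatment. Array numbers in the labels fall into runs of neighbouring numbers. Treg replicate 1 and Teff replicates 1 and 2 lie in a first run, Treg replicate 2 and Teff replicate 3 in a second, and the array labelled Treg replicate 3 in another run that holds no anti-ICOS Teff array.

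Treg cells restrain other lymphocytes through surface receptors such as CTLA-4, through secreted interleukin 10 and by consuming interleukin 2, for which they carry the high-affinity receptor CD25. Those that enter inflamed tissue take on further receptors and granule proteins, among them KLRG1, CD103 and granzyme B. ICOS is a costimulatory receptor of activated T cells, and the blocking of its pathway is a tool for asking how such cells depend on it inside a lesion. The comparison asks which genes separate Treg from Teff cells of the lesion under this treatment.

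Before any test, the array labelled Treg replicate 3 was set against the other 5, because its profile is in doubt. Il2ra, the gene of the sort marker CD25, gave log2 intensities of 5.0, 7.03 and 3.88 in Treg replicates 1 to 3 and of 3.82, 3.68 and 3.81 in Teff replicates 1 to 3. The array labelled Treg replicate 3 was thus close to the Teff arrays, while Treg replicates 1 and 2 lay well above them. Of 19 measured Treg core genes, 14 were at least 2-fold above the Teff mean in Treg replicate 1 and 14 in Treg replicate 2, against 0 in the third. Averaged over those 19 genes, the arrays stood 1.71, 2.19 and 0.01 log2 units from the Teff mean for Treg, and 0.37, -0.13 and -0.24 for Teff. Across all probe sets the array labelled Treg replicate 3 correlated at r = 0.987, 0.993 and 0.993 with Teff replicates 1 to 3 and at 0.962 and 0.980 with Treg replicates 1 and 2. Treg replicates 1 and 2 correlated at 0.965 with each other. With Teff replicates 1 to 3, Treg replicate 1 correlated at 0.975, 0.957 and 0.9535, and Treg replicate 2 at 0.972, 0.980 and 0.982. A closer correlation with a Teff array than with another Treg array was therefore not particular to the third array. Probe sets are not independent replicates, so these correlations are descriptions. Foxp3 was not analysed here, since no probe set carries its symbol alone. Counts of calls are therefore given with all 6 arrays and without this one. Low values in Treg genes put this array in doubt, so calls of such genes without it are not independent of leaving it out. In every fit with all 6 arrays but the one with run as a block, no gene passed, so the genes of these mice named as risen or fallen passed without the array labelled Treg replicate 3.

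The 831 probe sets that separated Treg from Teff in the earlier IgG-treated group gave a scale set on other arrays, on which the mean IgG Teff array lies at 0 and the mean IgG Treg array at 1. Treg replicates 1 and 2 of the anti-ICOS mice lay at 1.06 and 0.861, and the array labelled Treg replicate 3 at 0.103. Teff replicates 2 and 3 lay at 0.019 and -0.016, and Teff replicate 1 at 0.413. A Teff array thus also stood apart, in the direction of Treg. An IgG Treg array from the run of the doubtful array lay at 0.928, although it shares its array number with one of the arrays that set the scale. On a scale set by 2597 probe sets called between CD25+ and CD25- cells of lymph nodes, the Treg arrays lay at 1.32, 0.716 and 0.447 and the Teff arrays at 0.834, 0.280 and 0.270. There Teff replicate 1 lay above Treg replicate 2, so the order of the arrays depended on the scale.

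**Figure D1:**
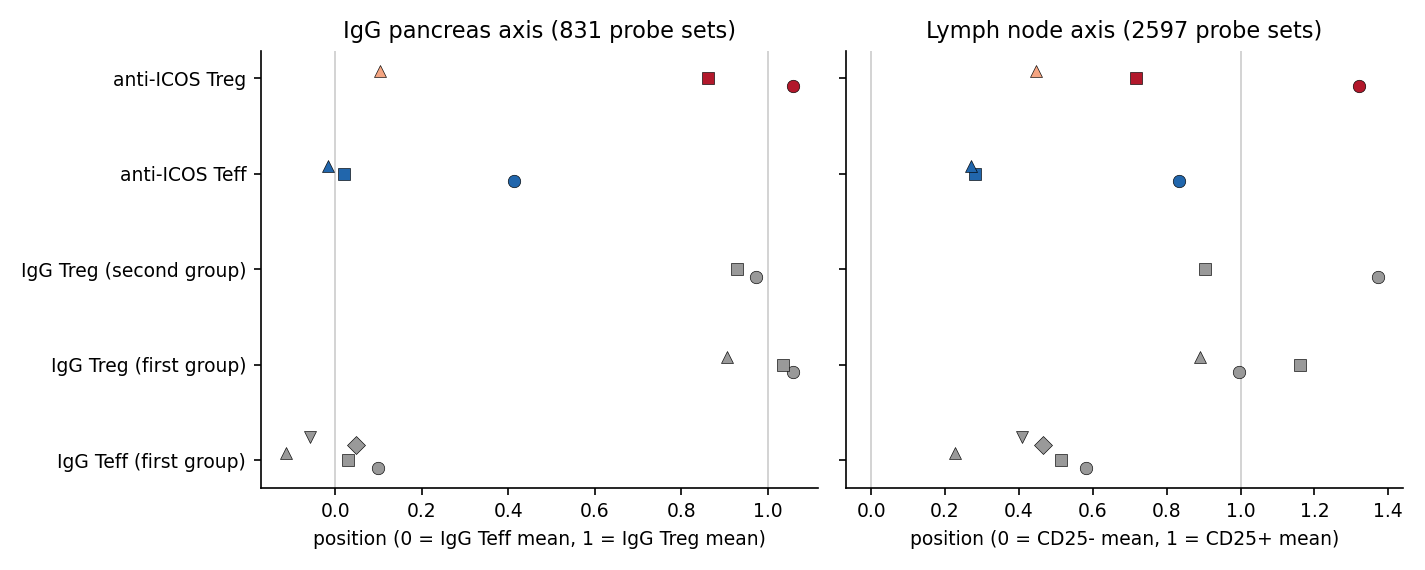
Position of each pancreatic array (points; replicates 1 to 5 are circle, square, triangle, diamond and inverted triangle) between the means of 2 cell types, on the horizontal axis without unit, for a scale from IgG-treated pancreas (left) and one from lymph nodes (right). In the left panel anti-ICOS Treg replicates 1 and 2 (red) sit at 1.06 and 0.861, whereas the array labelled Treg replicate 3 (orange) sits at 0.103, below Teff replicate 1 (blue) at 0.413.

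With all 6 arrays, no probe set passed the threshold. Of 12422 tested, 0 (0%) had a limma adjusted p under 0.05, the smallest adjusted p was 1, and 209 had an unadjusted p under 0.05. The Treg and Teff values did not overlap for 386 probe sets that were higher in Treg (3.11% of those tested) and for 224 that were lower (1.80%). Genes that combined no overlap with an unadjusted p under 0.05 numbered 86, of which 64 were higher in Treg and 22 lower. None of their adjusted p-values passed, so the values that follow for all arrays are descriptions.

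Klrg1, a lectin-like inhibitory receptor of tissue Treg and effector cells, led the genes higher in Treg. Its log2 intensity was 8.80, 9.46 and 5.5 in the Treg arrays and 5.11, 5.25 and 5.30 in the Teff arrays. Treg replicates 1 and 2 were far above every Teff array and the third Treg array only just above them. The difference was 2.70 ± 0.86 (SE, n = 3 per group; limma adjusted p = 1). Ifng, which encodes interferon gamma, gave 10.11, 8.13 and 7.33 in Treg against 7.13, 6.41 and 6.26 in Teff, with no overlap and a difference of 1.92 ± 0.62 (adjusted p = 1). Ahr, the aryl hydrocarbon receptor, gave 5.58, 7.08 and 4.2 against 3.68, 4.19 and 3.84, a difference of 1.72 ± 0.61 that rests on the first 2 Treg arrays. The other 9 largest differences upward lay between 0.87 and 1.19: Gbp3 (1.19), an interferon-induced GTPase; E2f8 (1.13), a cell cycle transcription factor; Gadd45g (1.09), a stress signalling protein; Pim1 (1.05), a survival kinase downstream of cytokines; Dgat1 (1.02), of triglyceride synthesis; Anln (0.99), of cytokinesis; Ptpn13 (0.97), a tyrosine phosphatase; Nckap1 (0.93), an actin regulator; and Itm2c (0.87). In all 9 the third Treg array was the lowest of the Treg arrays, and Pim1 there (8.27) was level with Teff replicate 1 (8.27).

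Genes lower in Treg with no overlap differed less. Ppic, a peptidyl-prolyl isomerase, gave 3.28, 3.39 and 4.18 in Treg against 4.4, 4.56 and 4.69 in Teff, a difference of -0.94 ± 0.24 (n = 3 per group; limma adjusted p = 1). Ptpn22, a phosphatase that dampens T cell receptor signalling, followed at -0.71 ± 0.28, with Treg values of 7.28, 8.23 and 8.22 below Teff values of 8.39, 8.82 and 8.65. The next 10 were Wdr43 (-0.58), Tcea1 (-0.56), 2310061I04Rik (-0.53), Ifnar2 (-0.53), Adh1 (-0.52), Ramp1 (-0.47), Tnfsf4 (-0.47), Klf3 (-0.46), St8sia1 (-0.44) and Mettl8 (-0.44). Ifnar2 encodes a chain of the type I interferon receptor, and a second probe set for it did not share the difference (0.11). Tnfsf4 encodes the ligand of the receptor encoded by Tnfrsf4, and its intensities of 2.42 to 3.31 were dim. In the joint fit without the third Treg array, Ptpn22 fell (-0.87 ± 0.19; adjusted p = 0.043).

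Without the array labelled Treg replicate 3, 12 probe sets passed: 11 were higher in Treg (0.0886% of 12422) and 1 was lower (0.00805%). They belong to 10 named genes and 2 probe sets without a symbol. Klrg1 rose most, by 3.91 ± 0.21 (limma adjusted p = 0.00115; n = 2 Treg, 3 Teff), a 15.1-fold difference. Socs2, a suppressor of cytokine signalling induced through STAT5, gave 8.63 and 9.72 in Treg replicates 1 and 2, 6.07 in the third, and 6.31, 5.26 and 5.25 in Teff. Its difference was 3.56 ± 0.41 (adjusted p = 0.0398), against 2.53 ± 0.80 with all arrays. Il1r2, the decoy receptor for interleukin 1, gave 7.66, 9.06 and 4.86 against 4.82, 4.69 and 5.11, a difference of 3.49 ± 0.38 (adjusted p = 0.0376). Here the third Treg array lay inside the Teff range.

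Penk, which encodes the enkephalin precursor, gave 8.93, 8.99 and 5.68 in Treg and 5.99, 5.78 and 5.84 in Teff on one probe set, a difference of 3.10 ± 0.15 without the third array (limma adjusted p = 0.00105). A brighter second Penk probe set differed by only 0.52 ± 0.22 (adjusted p = 0.879), so the 2 probe sets disagree. Il10, the suppressive cytokine interleukin 10, gave 6.10, 6.82 and 4.08 against 4.46, 4.11 and 4.21, a difference of 2.20 ± 0.24 (adjusted p = 0.0376). Ighm, the immunoglobulin mu heavy chain, rose by 1.82 ± 0.17 on one probe set (adjusted p = 0.031), and on another differed by 1.21 ± 0.15 (adjusted p = 0.0564). Its other 14 probe sets differed by -0.11 to 0.22, so the Ighm probe sets disagree. The B cell genes Cd79a (5.86, 5.88 and 5.78 against 5.90, 5.77 and 5.59) and Ms4a1 (5.6, 5.05 and 5.5 against 5.59, 5.75 and 5.21) did not move with it. Tdrp, a nuclear protein named for its role in the testis, was the gene that fell, by 2.67 ± 0.28 (adjusted p = 0.0376). Its intensities were 4.99 and 5.79 in Treg replicates 1 and 2, 8.31 in the third, and 7.86, 8.08 and 8.24 in Teff. A dimmer second Tdrp probe set differed by 0.17 ± 0.20 (adjusted p = 1) and did not share the difference.

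The remaining named genes of the 12 were 3 receptors of the tumour necrosis factor family, a group that delivers survival and costimulatory signals to Treg cells. Tnfrsf4 (OX40) gave 9.81 and 9.80 in Treg replicates 1 and 2, 6.85 in the third and 7.83, 7.08 and 7.02 in Teff, a difference of 2.49 ± 0.26 (limma adjusted p = 0.0376). Tnfrsf1b (TNF receptor 2) gave 8.80, 8.32 and 6.31 against 6.44, 6.69 and 6.57, a difference of 1.99 ± 0.20 (adjusted p = 0.0376). Tnfrsf18 (GITR) gave 9.36, 9.48 and 7.74 against 8.03, 7.78 and 8.02, a difference of 1.47 ± 0.16 (adjusted p = 0.0393). For all 3 the third Treg array lay below every Teff array. Tnfrsf4 and Tnfrsf18 are neighbours on chromosome 4, 9708 bases apart in GRCm38.p6.

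Promoter sequences show what stands before the start sites of called genes that move together. Of the 10 named genes, 4 have a promoter in the RefSeq table used (GRCm38.p6; 250 bases before to 50 after the start). They were searched on both strands for TTCNNNGAA, the palindromic STAT-type motif, which is in 8.3% of all 32851 promoters of that length, and for TGANTCA (AP-1 type, 7.8%) and GTAAACA (forkhead type, 3.6%). The first was found once each in Il1r2, Tnfrsf18 and Tnfrsf1b, starting at positions -111, -99 and -181 from the start site, and not in Tnfrsf4. Neither of the other motifs was found in the 4 windows. Capitals mark the match. The windows are chr1:40085843-40086142 (+) for Il1r2, chr4:156026072-156026371 (+) for Tnfrsf18, chr4:145246821-145247120 (-) for Tnfrsf1b and chr4:156013445-156013744 (+) for Tnfrsf4. A match is a description of letters, not a binding site.
Il1r2: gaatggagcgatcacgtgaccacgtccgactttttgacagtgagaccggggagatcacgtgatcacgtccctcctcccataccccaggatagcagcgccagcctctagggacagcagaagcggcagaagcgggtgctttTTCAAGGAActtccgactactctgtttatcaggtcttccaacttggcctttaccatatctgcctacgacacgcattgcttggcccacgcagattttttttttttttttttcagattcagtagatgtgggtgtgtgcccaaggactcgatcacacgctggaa
Tnfrsf18: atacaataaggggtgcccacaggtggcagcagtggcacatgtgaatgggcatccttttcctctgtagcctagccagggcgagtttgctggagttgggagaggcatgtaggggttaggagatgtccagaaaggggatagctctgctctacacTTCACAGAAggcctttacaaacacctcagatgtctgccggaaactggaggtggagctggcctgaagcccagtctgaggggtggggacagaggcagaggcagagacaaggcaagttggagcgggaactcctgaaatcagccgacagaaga
Tnfrsf1b: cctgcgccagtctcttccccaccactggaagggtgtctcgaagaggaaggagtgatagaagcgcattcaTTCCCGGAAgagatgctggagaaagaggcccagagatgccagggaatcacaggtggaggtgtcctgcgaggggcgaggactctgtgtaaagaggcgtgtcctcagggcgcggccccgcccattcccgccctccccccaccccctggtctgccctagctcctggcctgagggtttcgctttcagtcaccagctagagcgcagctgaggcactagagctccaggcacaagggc
Tnfrsf4: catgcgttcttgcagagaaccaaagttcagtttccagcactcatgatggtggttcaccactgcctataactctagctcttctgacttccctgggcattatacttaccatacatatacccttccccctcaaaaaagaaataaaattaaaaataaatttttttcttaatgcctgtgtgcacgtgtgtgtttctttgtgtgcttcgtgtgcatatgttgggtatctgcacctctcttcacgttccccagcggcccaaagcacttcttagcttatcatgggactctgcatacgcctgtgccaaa

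**Figure D2:**
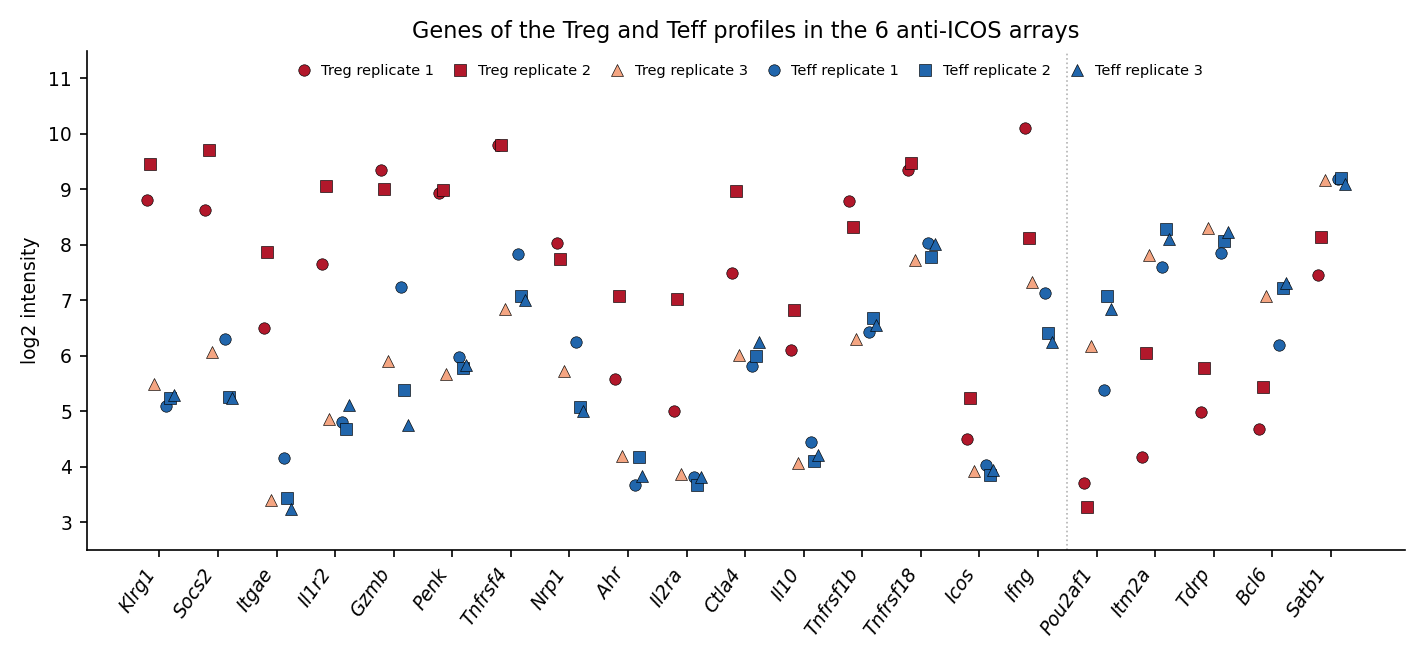
Log2 intensity (vertical axis) of 21 genes in each of the 6 anti-ICOS arrays; red is Treg replicates 1 and 2, orange the array labelled Treg replicate 3, blue Teff, and the dotted line parts genes higher from genes lower in Treg. Penk is drawn from its called probe set. For Klrg1 Treg replicates 1 and 2 sit at 8.80 and 9.46 while the orange point sits at 5.5, beside Teff values of 5.11 to 5.30.

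The number of genes that passed without that array varied between fits. In a joint fit with the other pancreatic arrays, quantile-normalized together, 114 probe sets were higher in Treg (0.918% of 12422) and 33 lower (0.266%), and 11 of the 12 probe sets above were among them. When the earlier arrays were added as deposited, with no normalization and each group keeping its own mean, 167 passed (140 higher and 27 lower), including 128 of the 147; among genes named here Actn1, Cenpa, Gbp3 and Ptpn22 did not. With the replicate number as a block over the anti-ICOS arrays of the joint fit, 97 passed (78 higher and 19 lower), including 93 of the 147, and all 147 kept their sign. The genes named here that lost their call under that block were Ahr (limma adjusted p = 0.0686), Cd2 (0.0627), Actn1 (0.12), E2f8 (0.106), Erbb3 (0.143), Procr (0.0656) and Igfbp4 (0.126). Both of these fits were added after the data were seen. Under quantile normalization of the separate fit 4 were higher and 2 lower, beside 11 and 1 as deposited. With the replicate number as a block in a fit of the anti-ICOS arrays alone, 0 of the 12 passed (n = 2 pairs and 1 unpaired Teff array), and Klrg1 and Penk then had adjusted p-values of 0.0856. Leaving out a further array gave between 2 calls (without Teff replicate 2 or without Teff replicate 3) and 21 (without Teff replicate 1), with 5 without Treg replicate 2, 19 without Treg replicate 1 and 4 without either IgG Treg array.

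Among the 19 measured Treg core genes, 0 passed with all arrays, beside 0% of all probe sets. Without the third Treg array 5 rose (Klrg1, Socs2, Il1r2, Tnfrsf4 and Tnfrsf18), beside 0.0886% of all probe sets. In the joint fit without it 11 rose, beside 0.918%. Il2ra, the gene of the sort marker, was among these 11. The third array was in doubt for its low values in these same genes. Counts and medians of this list without it are therefore not independent of leaving it out. The list's median difference was 1.41 with all arrays and 2.24 without the third, beside 0.014 and 0.018 over all probe sets tested. With all arrays, 4 members did not overlap (Klrg1, Ahr, Il2ra and Gpr83), all of them higher in Treg, beside 3.11% of all probe sets. Itgae, which encodes the CD103 integrin chain of tissue-resident T cells, gave 6.50, 7.88 and 3.41 against 4.16, 3.45 and 3.25. Its difference was 3.31 ± 0.29 in the joint fit without the third array (limma adjusted p = 7.48e-05) and 3.56 ± 0.45 in the separate fit (adjusted p = 0.0567). Ctla4, the inhibitory receptor that binds CD80 and CD86, gave 7.49, 8.96 and 6.02 against 5.81, 6.0 and 6.26, a difference of 1.47 ± 0.61 with all arrays. Ctla4 rose by 2.12 ± 0.29 in the joint fit (adjusted p = 0.00249; 0.164 in the separate fit). Nrp1, a semaphorin receptor of thymus-derived Treg cells, gave 8.04, 7.74 and 5.74 against 6.26, 5.08 and 5.0, a difference of 1.73 ± 0.59 with all arrays, and rose by 2.31 ± 0.31 in the joint fit (adjusted p = 0.00249; 0.111 in the separate fit). Prdm1, the Blimp-1 transcription factor, rose by 1.63 ± 0.29 there (adjusted p = 0.0139; 0.221 in the separate fit), beside 1.16 ± 0.54 with all arrays. Members that did not pass in either fit included Ikzf2 (0.32 ± 0.17 without the third array), Ikzf4 (-0.15 ± 0.15) and Il2rb (0.05 ± 0.17), all with intensities under 5.

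S100a4, S100a6 and Lgals1, genes of activated and memory T cells in the same list, did not pass either. Lgals1, galectin 1, gave 10.99, 9.61 and 7.57 in Treg and 9.88, 7.32 and 6.83 in Teff. Teff replicate 1 lay above Treg replicate 2 there, and its S100a4 value of 7.71 was the highest of the 6 arrays. For Lgals1 and S100a4 the Treg and Teff values overlapped even without the third Treg array.

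Among the 10 measured suppressive effector genes, Penk was taken by its brighter probe set. Il10 passed without the third array (beside 0.0886% of all probe sets higher in Treg). In the joint fit Il10, Gzmb and Entpd1 rose (beside 0.918%). Gzmb, granzyme B, gave 9.35, 9.02 and 5.91 in Treg and 7.25, 5.38 and 4.75 in Teff, with a difference of 2.30 ± 0.94 with all arrays and 3.19 ± 0.56 in the joint fit (limma adjusted p = 0.0119; 0.184 in the separate fit). Entpd1, the CD39 ectonucleotidase, gave 4.50, 4.99 and 3.39 against 3.47, 3.02 and 3.06, with 1.11 ± 0.37 with all arrays and 1.39 ± 0.16 in the joint fit (adjusted p = 0.00109; 0.108 in the separate fit). Tgfb1 (0.11 ± 0.17 without the third array), Ebi3 (0.36 ± 0.18) and Lag3 (0.25 ± 0.18) did not pass. Among 15 cytotoxic granule genes, 0 passed with all arrays or in the separate fit without the third, and Gzmb, Gzmk (1.42 ± 0.18; adjusted p = 0.00189) and Cst7 (1.39 ± 0.27; adjusted p = 0.0251), an inhibitor of granule cathepsins, rose in the joint fit, beside 0.918% of all probe sets. Prf1, perforin, was flat at 5.18, 4.76 and 5.06 against 5.10, 4.84 and 4.92.

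Of chemokine receptor and adhesion genes, 1 of 14 and 3 of 18 rose in the joint fit, beside 0.918% of all probe sets. With all arrays or in the separate fit, 0 of either passed. Cxcr3, the receptor for interferon-induced chemokines, gave 8.79, 9.11 and 7.12 in Treg and 7.65, 6.88 and 6.84 in Teff, a difference of 1.22 ± 0.48 with all arrays. It rose by 1.73 ± 0.24 in the joint fit (limma adjusted p = 0.00285; 0.105 in the separate fit). Cd48 (1.26 ± 0.22; adjusted p = 0.0121) and Cd2 (1.27 ± 0.26; adjusted p = 0.0306), partner adhesion receptors, rose there with Itgae. With all arrays they differed by 0.83 ± 0.38 and 0.89 ± 0.38. Ccr6 did not overlap between groups (7.18, 7.66 and 6.70 against 6.68, 6.35 and 6.68) and did not pass.

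Most cell cycle genes were higher in the mean of the Treg arrays. Of 36 measured, 34 had a positive difference with all arrays (median 0.52), where 6754 of 12422 probe sets did; 0 passed with all arrays and 0 without the third, and 6 rose in the joint fit (beside 0.918% of all probe sets): Cdk1, Ccnb2, H2az1, Mad2l1, Aurkb and Cenpa. Cdk1, the mitotic kinase, gave 7.28, 7.35 and 5.58 in Treg and 5.98, 5.53 and 5.5 in Teff, a joint difference of 1.58 ± 0.20 (limma adjusted p = 0.00214). Ccnb2, its cyclin partner, rose by 1.5 ± 0.28 (adjusted p = 0.0167). Top2a, topoisomerase II of dividing cells, did not overlap (6.75, 7.50 and 5.56 against 5.12, 5.22 and 5.37) and did not pass in the joint fit (1.78 ± 0.45; adjusted p = 0.0898). Mki67, the Ki-67 antigen, gave 6.49, 8.44 and 6.22 against 6.74, 5.70 and 5.66, so Treg replicate 1 lay below Teff replicate 1. The list's mean stood 0.59, 1.04 and -0.02 log2 units from the Teff mean in the 3 Treg arrays.

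**Figure D3:**
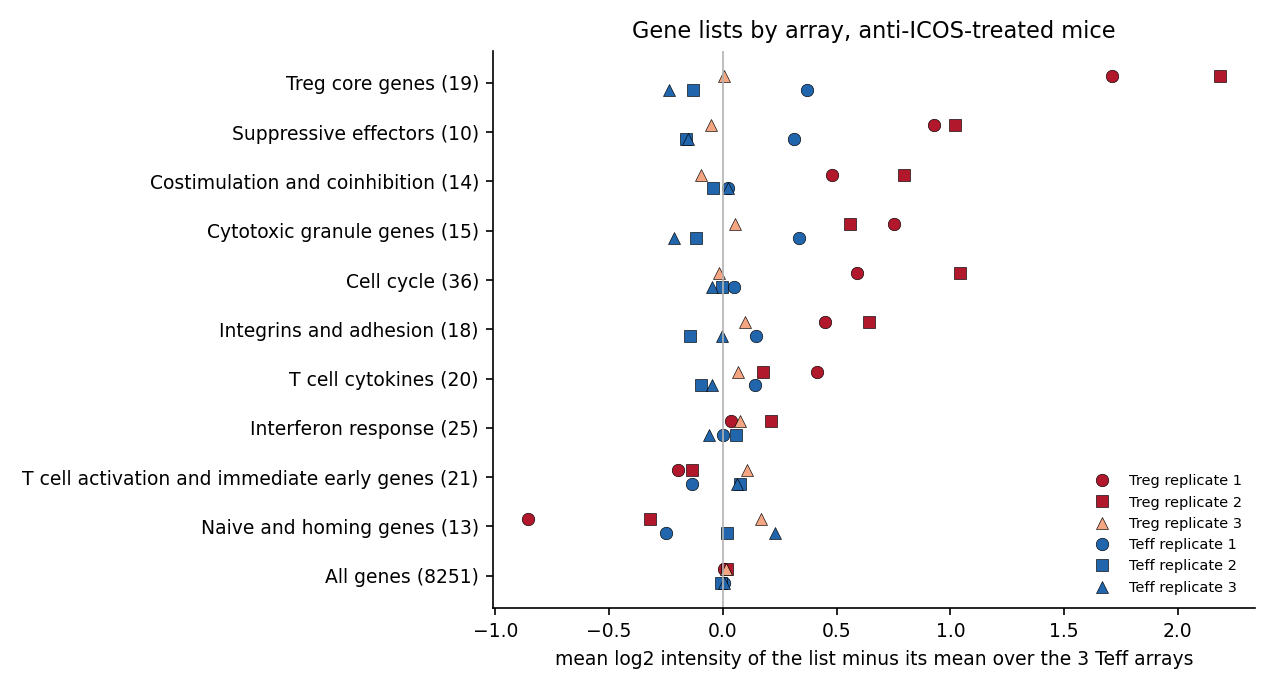
Mean log2 intensity of each gene list in each anti-ICOS array minus that list's mean over the 3 Teff arrays (horizontal axis, log2 units), with the number of measured genes in brackets. Treg replicates 1 and 2 (red) stand at 1.71 and 2.19 for the Treg core genes, the array labelled Treg replicate 3 (orange) at 0.01, and the mean over all genes stays within 0.02 of 0 in every array.

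Naive and homing genes, which mark T cells that recirculate through lymph nodes, ran the other way. None of 13 measured had a positive difference without the third array (median -0.42), where 6698 of 12422 probe sets did (median 0.018). None passed with all arrays or in the separate fit, and 2 fell in the joint fit, beside 0.266% of all probe sets. Satb1, a chromatin organiser, gave 7.46, 8.15 and 9.16 in Treg and 9.20, 9.20 and 9.11 in Teff and fell by 1.36 ± 0.21 in the joint fit (limma adjusted p = 0.00497). Actn1, an actin cross-linker, fell by 1.39 ± 0.30 there (limma adjusted p = 0.0387). These counts take each gene's brightest probe set. Dimmer probe sets of Lef1 (-1.105, limma adjusted p = 0.0037) and Igfbp4 (-0.704, limma adjusted p = 0.0354) also fell in the joint fit. The brightest probe set of either gene did not pass. Ccr7, the lymph node homing receptor, gave 4.62, 4.52 and 5.32 against 5.10, 5.06 and 5.44 and did not pass. Outside the list, Pou2af1, a coactivator of octamer-binding factors, gave 3.72, 3.28 and 6.18 against 5.38, 7.09 and 6.85, and fell by 2.73 ± 0.36 in the joint fit (adjusted p = 0.00249). Itm2a gave 4.18, 6.06 and 7.82 against 7.60, 8.29 and 8.12 and fell by 2.81 ± 0.54 (adjusted p = 0.0226). For Pou2af1 the third Treg array and Teff replicate 1 lay between the other Treg and the other Teff arrays.

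Of 20 cytokine genes measured, Il10 alone passed, in the separate fit without the third array and in the joint fit. Over all probe sets, 0.0886% and 0.918% were called higher in Treg in these fits. Ifng, without the third Treg array, differed by 2.52 ± 0.54 (limma adjusted p = 0.256) and in the joint fit by 2.37 ± 0.62 (adjusted p = 0.104), with Treg replicate 1 almost 2 log2 units above Treg replicate 2. Lta, lymphotoxin alpha, did not overlap (8.47, 7.08 and 6.74 against 6.60, 6.4 and 6.66) and did not pass. Il2 (2.42, 2.45 and 2.63 against 2.61, 2.36 and 2.49), Il4, Il17a and Csf2 stayed under 3 in all 6 arrays on the brightest-on-average probe set of each; a dimmer one for Il4 reached 3.47 in Treg replicate 1. The chemokine Ccl3 gave 8.83, 6.58 and 5.45 against 5.97, 5.37 and 5.11 a difference of 1.47 ± 0.73 with all arrays, and rose in the joint fit by 2.14 ± 0.47 (adjusted p = 0.0429; 0.411 in the separate fit).

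Among the genes of the treated pathway, Icos itself was dim, at 4.50, 5.25 and 3.93 in Treg and 4.03, 3.86 and 3.94 in Teff. Its difference was 0.61 ± 0.29 with all arrays (limma adjusted p = 1) and 0.93 ± 0.23 without the third (adjusted p = 0.344). Cd28, the related costimulatory receptor, gave 7.26, 8.04 and 8.49 against 8.23, 8.35 and 8.69, with a difference of -0.50 ± 0.31 and overlapping values. Without the third Treg array the difference was -0.78 ± 0.29 (adjusted p = 0.766), with no overlap. Of 14 costimulatory and coinhibitory genes, Ctla4, Tnfrsf4, Tnfrsf18 and Tnfrsf1b rose in the joint fit, beside 0.918% of all probe sets. Of 25 interferon response genes measured, 0 passed with all arrays or in the separate fit. Gbp3 alone rose in the joint fit (1.54 ± 0.31, limma adjusted p = 0.0259), beside 0.918% of all probe sets. With all arrays 3 did not overlap and were higher (Gbp3, Igtp and B2m) and 1 was lower (Usp18), beside 3.11% and 1.80% of all probe sets. Igtp, an interferon-induced GTPase, gave 8.61, 9.02 and 8.56 in Treg and 8.11, 8.33 and 8.02 in Teff, a difference of 0.58 ± 0.17 (unadjusted p = 0.00985; adjusted p = 1) in which the third Treg array lay with the other Treg arrays. Isg15, Irf7 and Ifit1 differed by -0.48 ± 0.20, 0.04 ± 0.23 and -0.13 ± 0.24 without the third array and did not pass. Socs3, a suppressor of cytokine signalling distinct from Socs2, was a gene in which the third Treg array kept pace, at 7.50, 7.68 and 7.66 against 7.23, 6.82 and 7.12 (0.55 ± 0.19; adjusted p = 1). On a dimmer second Socs3 probe set the groups overlapped, with a difference of 0.24 with all arrays.

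Treg minus Teff differences were also taken within the 2 runs of array numbers that hold both cell types, a choice made after the data were seen. In the first run, Treg replicate 1 was set against the mean of Teff replicates 1 and 2, and in the second Treg replicate 2 against Teff replicate 3. At least 2-fold higher in both runs were 90 probe sets (0.725% of 12422) and at least 2-fold lower 29 (0.233%), out of 654 and 271 probe sets past 2-fold in either direction in the first and second run. All 12 probe sets that passed without the third Treg array were among these 119. The run differences come from the same anti-ICOS arrays as that fit, so this overlap is not independent of it. Klrg1 differed by 3.63 and 4.16 in the 2 runs, Socs2 by 2.84 and 4.47, Gzmb by 3.03 and 4.26, and Tdrp by -2.98 and -2.45. Ifng differed by 3.34 and 1.87 and Ccl3 by 3.16 and 1.48, so these were larger in the first run. Ahr (1.64 and 3.24) and Il2ra (1.25 and 3.22) were larger in the second. Within a run there is 1 Treg array, so these values have no test.

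**Figure D4:**
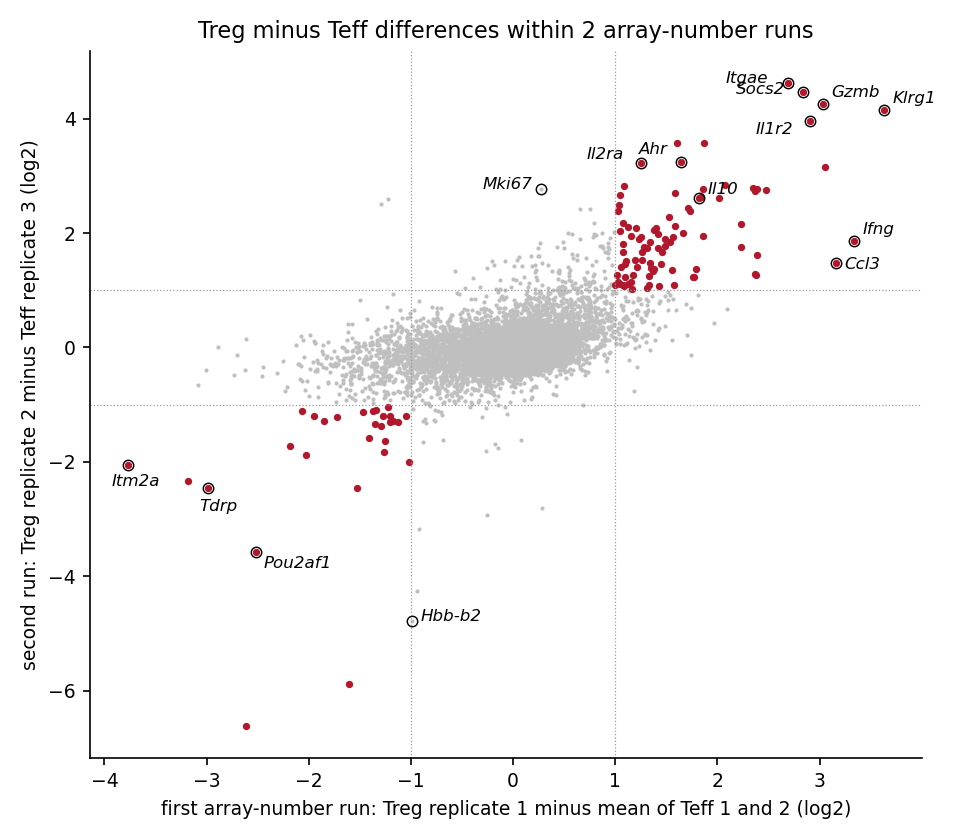
Treg minus Teff difference (log2) in the first run of array numbers (horizontal) against the second (vertical) for 12422 probe sets; dotted lines mark 2-fold, and the 119 probe sets past 2-fold in the same direction in both runs are red. Klrg1 lies at 3.63 and 4.16 and Tdrp at -2.98 and -2.45, while Hbb-b2 lies at -0.99 and -4.79.

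Whether the Treg-Teff difference was altered by the treatment was asked with an interaction against the IgG-treated arrays. Of 12422 probe sets 0 (0%) passed (smallest limma adjusted p = 1), and 327 had an unadjusted p under 0.05; without the third Treg array 0 passed and 258 did. The 10 genes with the smallest unadjusted p were Rgs2 (0.94 ± 0.22), Mtmr10 (0.47 ± 0.13), Ttc27 (0.78 ± 0.21), Hes5 (-0.53 ± 0.15), Lpin1 (0.52 ± 0.15), Snrpd3 (1.16 ± 0.35), Zfp930 (-0.52 ± 0.16), Lcn5 (0.36 ± 0.11), Ddx6 (0.93 ± 0.28) and Mycn (-0.44 ± 0.13), where a positive value means that the Treg-Teff difference was more positive under anti-ICOS. Rgs2, a regulator of G protein signalling, gave 5.71, 6.31 and 6.48 in anti-ICOS Treg and 6.18, 5.95 and 5.97 in anti-ICOS Teff, overlapping values, and differed by -0.81 between Treg and Teff of IgG-treated mice. Klrg1's interaction was -1.44 ± 0.83 with the third Treg array and -0.28 ± 0.24 without it. Ifng's was 0.97 ± 0.80 with it and 1.53 ± 0.77 without it (unadjusted p = 0.0656), and the 2 IgG Treg arrays of the same submission had Ifng at 5.37 and 5.59. Ccl3's was 1.52 ± 0.58 without it (unadjusted p = 0.0205). All IgG Teff arrays belong to the earlier group, which has its own gate and an unnamed processing method. Gate, submission and processing therefore cannot be told apart from the treatment. Runs were shared only in part, and the labels of the earlier group give no age, so these may differ as well.

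In IgG-treated mice 488 probe sets were higher in Treg (3.93% of 12422) and 343 lower (2.76%). Over the 488, the median anti-ICOS difference was 0.43 with all arrays and 0.68 without the third, beside 0.73 under IgG. Treg replicates 1 and 2 lay above all 3 Teff arrays for 409 and 392 of the 488, and the array labelled Treg replicate 3 for 63 (12.9%). Over the 343 lower ones the median was -0.39 with all arrays and -0.59 without the third, beside -0.73 under IgG. Here Treg replicate 1 lay below all Teff arrays for 290 and Treg replicate 2 for 137 (39.9%). Teff replicate 1 was itself low on these probe sets, by a median of -0.601 from the mean of the other Teff arrays. The smaller share of Treg replicate 2 thus rests in part on that Teff array. All 12 probe sets that passed without the third array had passed in IgG-treated mice in the same direction. Of the 147 called in the joint fit, 133 had done so, which is 90.5% of the 147 and 16% of the 831. The earlier IgG arrays that gave the 831 also inform the spread in the joint fit, so this overlap is not independent. The other 14 of the 147 included Mad2l1, Erbb3, Lifr, Procr and Sec61a1, named after their values were seen. The largest differences among the 14 were those of 2 probe sets without a symbol, unnamed_97523_i_at (-4.24) and unnamed_97524_f_at (-3.47). The first gave 6.27, 2.97 and 10.43 in Treg and 8.76, 9.02 and 9.58 in Teff, so it was lowest in Treg replicate 2 and highest in the third Treg array, the order also seen in Prss2 and Hba-a1 among the Treg arrays. None of the 14 had an interaction that passed.

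Values that moved with the arrays rather than the groups were recorded beside these results. Genes of the T cell receptor complex were expressed throughout, with Cd3e between 8.13 and 8.69, Cd3g between 9.12 and 9.43 and Cd4 between 6.60 and 7.22. Hba-a1, an alpha globin of red cells, gave 10.27, 6.04 and 11.14 in Treg and 11.18, 11.20 and 9.21 in Teff, lowest in Treg replicate 2. The 7 erythroid genes together stood -0.18, -1.93 and 0.17 from the Teff mean in Treg and between -0.74 and 0.40 in Teff. Prss2, a pancreatic trypsinogen, gave 7.35, 4.38 and 8.31 against 7.45, 6.69 and 7.18, highest in the third Treg array and lowest in Treg replicate 2. The 15 exocrine genes stood 0.06, -0.63 and 0.41 from the Teff mean in Treg and between -0.13 and 0.09 in Teff. Tyrobp, an adaptor of macrophages and natural killer cells, was highest in Teff replicate 1 (7.15, against 4.36 to 6.07 in the other 5), and the 23 macrophage and dendritic cell genes stood 0.38, -0.05 and -0.33 from their mean in Teff and between -0.34 and 0.07 in Treg. Of 15 B cell genes, Ighm rose and Pou2af1 fell in the joint fit, beside 0.918% and 0.266% of all probe sets. The B cell list stood between -0.17 and 0.08 in all 6 arrays. The 5 CD8 and natural killer cell genes stood -0.30, -0.68 and -0.02 from the Teff mean in Treg. None of the erythroid, exocrine, CD8, islet, stroma, macrophage or granulocyte genes passed in any of the 3 fits. The part of these cells in the results was not tested. In sorted samples, fewer cells of a type and less RNA per cell cannot be told apart.

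**Figure D5:**
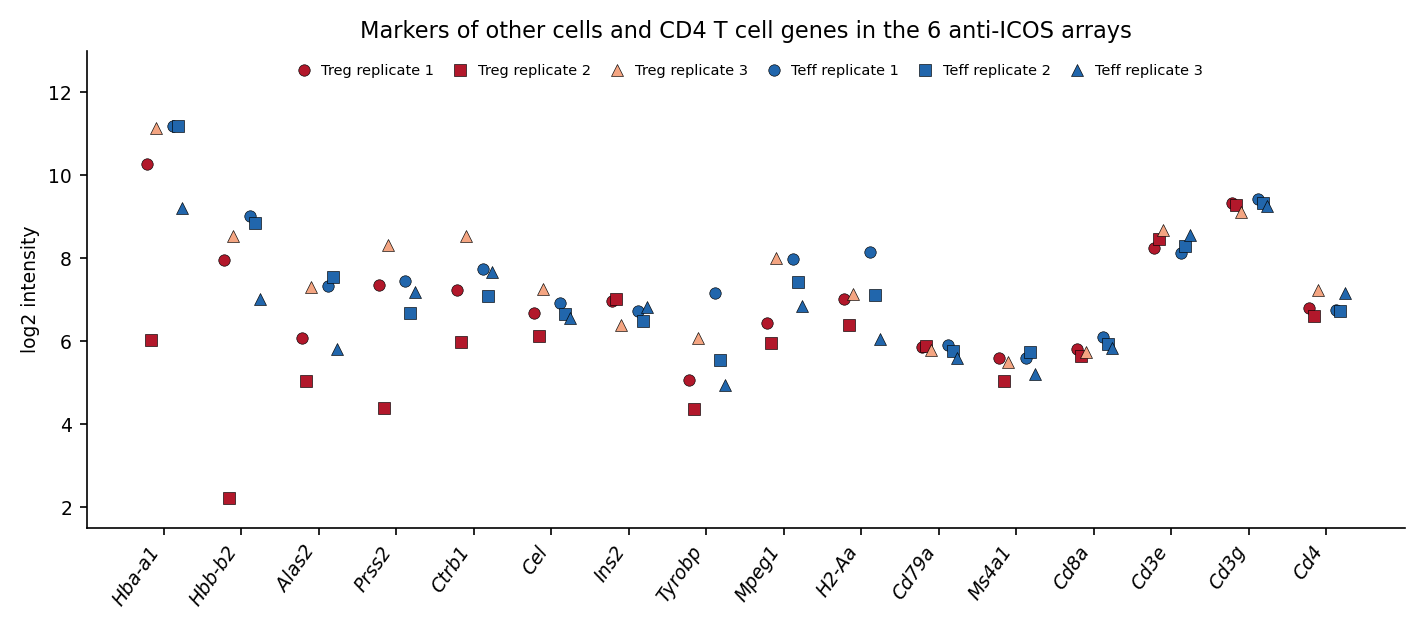
Log2 intensity (vertical axis) of red cell, exocrine, islet, myeloid, B and CD8 T cell markers and of CD4 T cell genes in each anti-ICOS array, coloured as in the plot of leading genes. Hba-a1 falls to 6.04 in Treg replicate 2 against 9.21 to 11.20 elsewhere, and Cd3g stays between 9.12 and 9.43.

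The log2 ratio of the 3' to the 5' actin probe set, a measure of RNA integrity and amplification, was 4.06, 2.45 and 2.65 in Treg and 2.41, 2.16 and 2.30 in Teff. The means were 3.05 ± 0.87 and 2.29 ± 0.12 (SD, n = 3 per group), and every Treg array lay above every Teff array. The exact two-sided permutation test gave p = 0.1, the smallest p that 3 against 3 allows. Treg replicate 1 made most of the difference, which was 0.765 with all arrays and 0.263 without it. The Gapdh ratio differed by 0.353 (exact p = 0.3). With the actin ratio as a covariate, 0 probe sets passed with all arrays and 90 passed without the third Treg array.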

How the data were processed

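The 6 anti-ICOS arrays, 2 IgG Treg arrays of the same submission and 8 earlier IgG arrays were used, with lymph node arrays for 1 scale. The deposited values are linear intensities per probe set; per the submitters' processing notes they came from RMA for all but the 8 earlier IgG arrays, whose method no source used here names. RMA pulls dim probe sets together, so small folds of dim genes are understated. Log2 intensities of 12422 probe sets (66 controls left out of 12488) were tested with limma 3.58.1 in R 4.3.3 (lmFit, eBayes, Benjamini-Hochberg over all probe sets, threshold 0.05). The separate fit holds the 6 anti-ICOS arrays and the 2 IgG Treg arrays, which inform only the spread. The joint fit adds the earlier IgG arrays after quantile normalization, with an array number present in both groups averaged; it also gave the interaction. The annotation of the platform gives 1 symbol to 10833 probe sets, several to 396 and none to 1193; a gene is its brightest probe set with 1 symbol (8251 genes). The separate fit, with and without Treg replicate 3, was also run on simulated data. The joint fit and the interaction were not.

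Median intensities ran from 27.9 to 29.8 in the 6 arrays, and their number limits the precision. Genes named are the 12 largest differences each way among genes with unadjusted p under 0.05 and no overlap, all called without Treg replicate 3, members of gene lists, the 10 smallest interaction p-values and the genes by which Treg replicate 3 departs most from the other 2. The members and lists were chosen with earlier results of these data known. Replicate numbers are shared by the groups, and deviations from the group means correlated at 0.589, 0.283 and 0.237 for same-numbered arrays, so a fit with the replicate number as a block was run; Treg replicate 2 correlated more with Teff replicate 3 (0.439), which is in its run. Alternatives left out each array, changed normalization, filter, log offset (16) and limma options, or added run, array weights or the actin ratio.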

Additional observations from a re-analysis of the deposited data

How the results depend on the processing

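With all 6 arrays the count stayed at 0 under every alternative run except 2: 12 without Treg replicate 3 and 15 with the run of array numbers as a block, a fit in which Treg replicate 3, alone with an IgG array in its run, adds nothing to the Treg-Teff difference. Leaving out each array gave 0 to 12. Without Treg replicate 3 the count of 12 moved widely: 4 with only the anti-ICOS arrays, 0 with the replicate block, 6 with quantile normalization, 4 with log2(value + 16), 22 with trend and robust options, 46 with array weights, 90 with the actin ratio as covariate, 147 in the joint fit, 97 in the joint fit with the replicate block and 167 with the earlier arrays added as deposited (the last 2 chosen after seeing the data); leaving out a further array gave 2 to 21. The run block gave 15 and the filter on dim probe sets 13. With all arrays the replicate block gave 0 in both the separate and the joint fit, and the interaction stayed at 0 with it. Quantile normalization changed the split from 11 higher and 1 lower to 4 and 2. The interaction stayed at 0 in the 11 other alternatives run, and the actin difference kept its sign, between 0.263 and 1.07. Of 49 named probe sets with all arrays, 2 changed sign: Prss2 (0.72 without Treg replicate 2, 0.40 with array weights, 0.28 within the first run, against -1.24 without Treg replicate 3) and Hba-a1 (0.18 without Treg replicate 2, -2.37 without Treg replicate 3). Of 40 without Treg replicate 3, 0 did. Klrg1 and Penk passed in 16 of 17 of those alternatives, from 3.44 to 4.24 and from 2.79 to 3.16. Probe sets without overlap went from 610 to 2203 when Treg replicate 3 was left out. Leaving out any array can raise this count and cannot lower it. How much of the rise is particular to Treg replicate 3 was not tested.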

Other observations

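Treg replicate 3 departed from the mean of Treg replicates 1 and 2 most strongly in the genes Itgae (by -3.78), Klrg1 (-3.63), Il1r2 (-3.50), Gzmb (-3.27) and Socs2 (-3.10) on the lower side, followed by Tnfrsf4, Il10, Ccl3, S100a6 and Lgals1. On the higher side stood the globins Hba-a1 and Hbb-b2, Tdrp (2.92), Itm2a (2.70), Pou2af1 (2.69), Ugcg (2.03), Fos (2.06), Bcl6 (2.02), Nsg2 (1.96) and the trypsinogen Prss2. Fos, an immediate early transcription factor, was 6.24 and 6.4 in Treg replicates 1 and 2, 8.38 in the third and 7.37 to 7.82 in Teff, so the third array exceeded both groups. Bcl6, a transcriptional repressor characteristic of follicular helper cells, was 7.08 there, within the Teff range of 6.19 to 7.32. The IgG Treg array of the same run had Klrg1 at 9.34, Itgae at 7.70 and Fos at 4.91. These are values of single arrays and have no test.

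limma's array weights, which rise as an array sits nearer to its group's fit, were 0.395, 0.920 and 2.46 for Treg replicates 1 to 3 and 0.544, 5.94 and 1.85 for Teff.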
